A study of Mus musculus with 6 samples.

Results

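The genes described here are 6 genes of lymphocyte identity and signalling, Pax5, Foxo1, Fcrla, Prdm1, Cd28 and Tespa1. They were taken as every probe set whose gene symbol is exactly one of these names in the authors' deposited table, which gave 8 of its 1711 probe sets and 6 of its 1512 genes with values and a single symbol. That table lists only probe sets with an unadjusted p under 0.05 between the genotypes, so the p-value of the contrast chose the members and their differences are descriptions, with no test. Total RNA came from whole bone marrow of leukemic mice after red cells had been lysed, and was hybridised to Affymetrix mouse genome arrays. There were 3 arrays labelled Gfi1 KD and 3 labelled Gfi1 KI, called Gfi1-KD and Gfi1-KI here. All 6 mice carried Vav-1 Nup98/HoxD13, a leukemogenic fusion driven by a promoter active across blood cell lineages, and were adults that the study matched by age, without a stated age. By general knowledge of these mice, which the labels do not spell out, Gfi1-KI animals carry human GFI1 at the mouse locus and Gfi1-KD animals a version with reduced expression, so neither group is wild type. The level of Gfi1 itself was not analysed here, since no filled row names it.

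Lymphocytes arise in marrow through a series of transcription factors and receptors. Pax5 commits progenitors to the B lineage, Foxo1 drives recombination and interleukin-7 receptor genes in B cell precursors and homing genes in T cells, and Prdm1 (Blimp-1) turns B cells into plasma cells and represses Pax5. Fcrla is an intracellular relative of Fc receptors in B cells. Cd28 is the costimulatory receptor of T cells that binds CD80 and CD86 and recruits phosphoinositide 3-kinase, and Tespa1 couples the T cell receptor to calcium release during thymocyte selection. Gfi1 is a transcriptional repressor that acts in myeloid and lymphoid development and binds DNA at sites with the core AATC.

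Promoter sequences of 4 of the 6 genes, Pax5, Foxo1, Fcrla and Prdm1, were matched by gene identifier in RefSeq (build GRCm38.p6), from 250 bases before to 50 after an annotated start. Those of Prdm1 and Fcrla are printed because, of these 4, they hold the most matches to the core of the Gfi1 site. Capitals mark AATC on either strand, so that GATT is its reverse, and the letters run in the direction of the gene. The Prdm1 window is chr10:44458699-44458998 (minus strand) and the Fcrla window chr1:170927534-170927833 (minus strand).
Prdm1: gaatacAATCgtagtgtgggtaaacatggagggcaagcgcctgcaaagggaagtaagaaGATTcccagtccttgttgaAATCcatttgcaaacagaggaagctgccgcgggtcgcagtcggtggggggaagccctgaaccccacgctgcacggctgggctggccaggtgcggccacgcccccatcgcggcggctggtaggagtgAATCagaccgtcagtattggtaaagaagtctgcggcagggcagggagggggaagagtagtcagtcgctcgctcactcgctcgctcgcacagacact
Fcrla: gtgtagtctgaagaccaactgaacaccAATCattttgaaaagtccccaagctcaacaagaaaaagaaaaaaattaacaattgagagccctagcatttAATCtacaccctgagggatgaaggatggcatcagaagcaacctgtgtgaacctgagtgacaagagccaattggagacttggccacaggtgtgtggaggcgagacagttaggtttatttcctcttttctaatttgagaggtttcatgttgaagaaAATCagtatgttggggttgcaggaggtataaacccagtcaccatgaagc

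The motif AATC occurred 4 times in the Prdm1 window and 3 times in that of Fcrla, with 2 matches in Foxo1 and 1 in Pax5. Of 32851 RefSeq promoters of the same length, 73.1% hold at least 1 match, so its presence is common. The median promoter holds 1 match and the most in any is 16. The share that holds as many as Prdm1 or Fcrla is not given here. The longer form AAATCA, which contains AATC, occurred once in the Fcrla window, where its AATC begins at base 2 from the start, and in 0 of the other 3 windows, against 14.0% of all promoters. AATCAC, which also contains AATC, occurred in 0 of the 4 windows, against 10.4% of all. The Fcrla window had 42.7% G and C, below the median of 52.7% over all promoters, and the other 3 had 59.0% to 61.3%. A match of letters does not show binding.

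Median MAS5 signal per array, a linear brightness, was 139, 117 and 148 for Gfi1-KD replicates 1 to 3. It was 133, 134 and 129 for those of Gfi1-KI. Gfi1-KI replicate 2 stood somewhat apart, with a median Pearson correlation of 0.905 with the other 5 arrays over probe sets, against 0.919 to 0.932 for the others. Probe sets are not independent replicates. Results that rest on that array are given with and without it. Precision is limited by the number of arrays. In bulk marrow fewer cells of a type cannot be told apart from less RNA per cell.

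All 8 probe sets had a higher mean in Gfi1-KD than in Gfi1-KI in both of the deposited kinds of signal. Cd28 (2.72-fold and 3.28-fold in its probe sets), Tespa1 (2.05-fold and 2.29-fold) and Prdm1 (2.02-fold) had the wider differences in the RMA signals, which are on a log2 scale after background correction and normalization across arrays. The RMA differences of Foxo1 (1.38-fold), Fcrla (1.16-fold) and the probe set listed as Pax5 (1.16-fold) were narrower. In MAS5 that order did not hold, with 1.24-fold for Foxo1, 2.01-fold for Fcrla and 2.37-fold for the Pax5 probe set, where Fcrla and Pax5 lay below the level filter described next. Of the filled probe sets in the authors' deposited table, 57.1% were higher in Gfi1-KD, and those are 2.52% of all 45101 probe sets on the array. The members' p-values there ran from 0.00629 (Cd28) to 0.0480 (Tespa1), the value nearest the threshold. Probe sets on the other side of it have blank rows. The step-up adjusted p in the authors' deposited table was 0.911 for each member. These p-values are what selected the genes, and they support nothing further.

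No member passed a test corrected over the array. In the MAS5 signals, limma with Benjamini-Hochberg adjustment called 0 of 22519 probe sets above the level filter at an adjusted p of 0.05 (0%). At an unadjusted p under 0.05 there were 1217, of which 837 were higher in Gfi1-KD (3.72% of those tested). Of the members, 6 probe sets lay above the filter, those of Foxo1, Prdm1, Cd28 and Tespa1, with limma adjusted p-values from 0.865 to 0.871. The probe sets of Pax5 and Fcrla lay below it, at mean log2 MAS5 signals of 6.02 and 5.96 against a filter at 6.95, and were not tested. An exact permutation test of 3 arrays against 3 cannot go below 0.1.

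**Figure D1:**
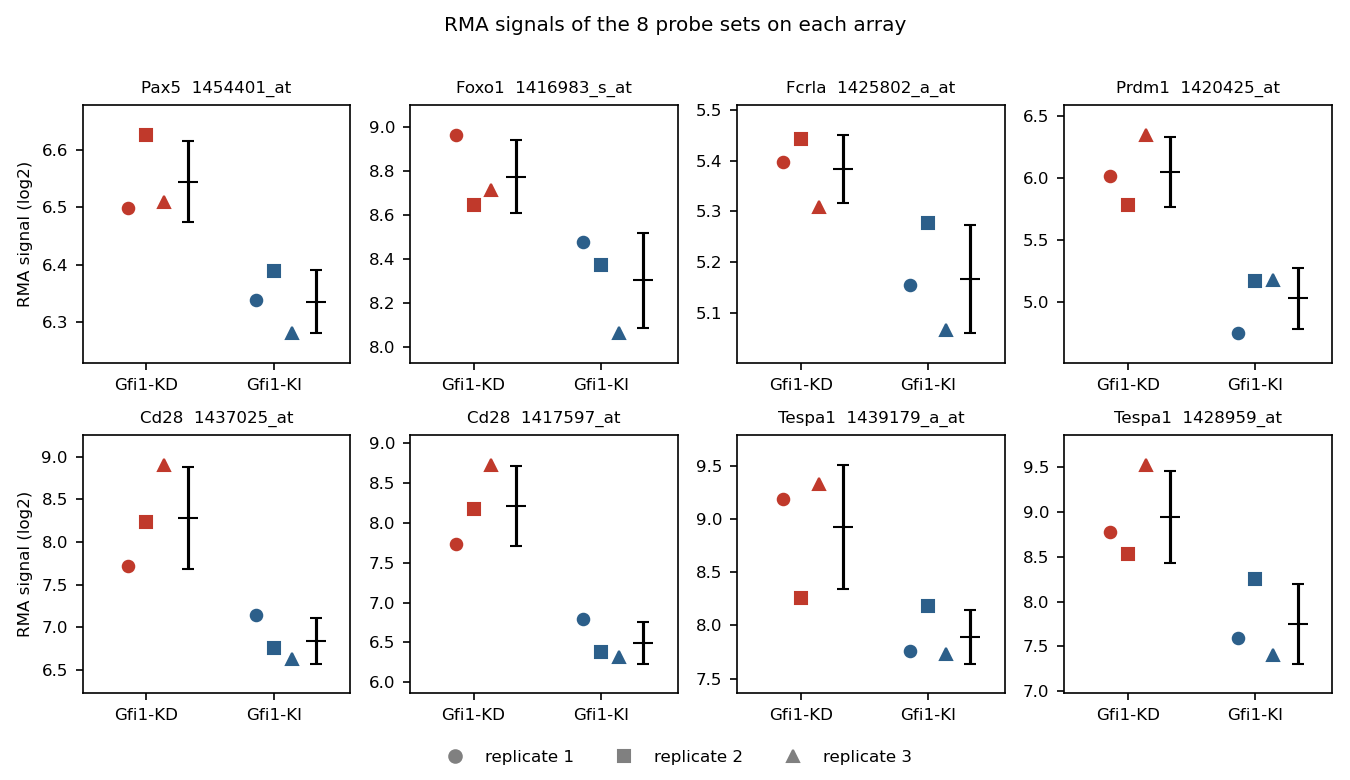
RMA signal (log2, vertical axis, its own range in each panel and not from 0) of each of the 8 probe sets on the 3 Gfi1-KD arrays (red, left) and the 3 Gfi1-KI arrays (blue, right); symbols mark replicates, and the bars show the mean and SD of 3 arrays. In every panel the Gfi1-KD arrays lie above the Gfi1-KI arrays, as the selection by p favours, with gaps from 0.03 (Fcrla) to 0.93 (Cd28, 1417597_at) on the log2 scale.

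Pax5 is represented by a single filled probe set, 1454401_at, whose annotation is unlike that of the other 7. Its RMA log2 signals were 6.50, 6.63 and 6.51 in Gfi1-KD and 6.34, 6.39 and 6.28 in Gfi1-KI. These groups did not overlap, and the lowest Gfi1-KD array was 0.11 above the highest Gfi1-KI array on the log2 scale. Its MAS5 signals were 117, 90.4 and 95.2 in Gfi1-KD and 25.0, 130 and 23.2 in Gfi1-KI. Here Gfi1-KI replicate 2 was above every Gfi1-KD array, so the groups overlapped. The log2 difference was 0.21 in RMA and 1.25 in MAS5, where it was 2.06 without Gfi1-KI replicate 2 and 0.81 without Gfi1-KI replicate 3.

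The probe set lies on build GRCm38 at chr4:44702799-44705110 on the minus strand, inside the Pax5 gene (44524748 to 44710694) and over the full length of 5730488B01Rik, a long noncoding RNA gene at 44702800 to 44705110. The array design records it as a target of 5730488B01Rik. In the deposited annotation it was assigned to Pax5 by overlap of genome positions (grade C, given to 14 of 1711 probe sets with a single symbol), and 0 transcripts of Pax5 are listed there with matching probes. All 11 of its probes are noted as matching the 5730488B01Rik transcript on the opposite strand. The other 7 member probe sets were assigned by matching probes (grade A, 88.8% of probe sets with a single symbol), each with 11 probes on at least 1 transcript. The signal of 1454401_at is therefore reported under the symbol in the file, and no level of the Pax5 messenger RNA is drawn from it.

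Foxo1, the forkhead factor that phosphoinositide 3-kinase signalling holds out of the nucleus, was measured by 1416983_s_at, which spans chr3:52268373-52350104, nearly the whole gene. RMA log2 signals were 8.97, 8.65 and 8.71 in Gfi1-KD and 8.48, 8.38 and 8.06 in Gfi1-KI. The groups were separate by 0.17 on the log2 scale, with Gfi1-KD replicate 1 highest and Gfi1-KI replicate 3 lowest. In the MAS5 signals the values were 1128, 725 and 732 in Gfi1-KD and 658, 605 and 789 in Gfi1-KI. There Gfi1-KI replicate 3, the dimmest array in RMA, was above Gfi1-KD replicates 2 and 3, and the groups overlapped. The log2 difference was 0.47 in RMA and 0.31 in MAS5, and the MAS5 value was 0.10 without Gfi1-KD replicate 1. Of the members tested, Foxo1 had the smallest MAS5 difference, 0.31 ± 0.26 (SE of limma).

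Fcrla (1425802_a_at, chr1:170917890-170927578, minus strand) was dim in both kinds of signal. In RMA its log2 signals were 5.40, 5.44 and 5.31 in Gfi1-KD and 5.15, 5.28 and 5.07 in Gfi1-KI, a gap of 0.03 between the nearest arrays. In MAS5 they were 79.0, 84.1 and 102 in Gfi1-KD and 28.2, 66.9 and 44.5 in Gfi1-KI. No Gfi1-KI array reached a Gfi1-KD array in either, but the order within Gfi1-KD turned round: replicate 3 was lowest in RMA and highest in MAS5. The log2 difference was 0.22 in RMA and 1.01 in MAS5, and the MAS5 value was 1.31 without Gfi1-KI replicate 2. The deposited annotation notes that 7 of its probes also match another transcript record, so cross-hybridisation is possible.

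For Pax5 and Fcrla the RMA difference was of the order of a shift of the whole table. The median RMA signal over the filled rows was 6.73 in Gfi1-KD and 6.61 in Gfi1-KI, a difference of 0.12, as the mean of the array medians. Relative to that shift the RMA log2 difference was 0.09 for Pax5, 0.10 for Fcrla and 0.35 for Foxo1. It was 0.90 for Prdm1, 1.32 and 1.59 for Cd28, and 0.91 and 1.08 for Tespa1. The filled rows were selected by p and lean to higher values in Gfi1-KD, so the shift is not that of all probe sets.

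Prdm1, the zinc finger repressor of plasma cell differentiation, which also acts in T cells and in myeloid cells, had a wider RMA difference than Foxo1, Fcrla and Pax5. In MAS5 it lay above Foxo1 (0.31) and below Fcrla (1.01) and Pax5 (1.25). Its probe set 1420425_at lies at chr10:44437174-44458748 on the minus strand. RMA log2 signals were 6.02, 5.78 and 6.35 in Gfi1-KD and 4.75, 5.17 and 5.18 in Gfi1-KI. Gfi1-KD replicate 3 was highest, Gfi1-KI replicate 1 lowest, and the groups were separate by 0.60. MAS5 signals were 165, 135 and 215 in Gfi1-KD and 107, 88.3 and 106 in Gfi1-KI. The order of the Gfi1-KD arrays was the same in both, and the groups did not overlap in either. The log2 difference was 1.02 in RMA and 0.75 ± 0.31 (SE of limma) in MAS5. It stayed between 0.57 and 0.91 in MAS5, and between 0.87 and 1.15 in RMA, whichever single array was left out. The MAS5 mean in Gfi1-KI, 6.65 on the log2 scale, lay below the level filter, which the probe set passed through its Gfi1-KD arrays.

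Cd28 had the widest RMA difference of the 6 genes, and its probe sets were aligned to separate stretches of the gene. It was also widest in MAS5 with all 6 arrays, but without Gfi1-KI replicate 2 the MAS5 log2 difference of the Pax5 probe set was 2.06, against 1.47 (1417597_at) and 1.496 (1437025_at) for Cd28. With array weights it was 1.81 for Pax5, against 1.37 and 1.34 for Cd28. The probe set 1417597_at spans chr1:60746418-60770930, and 1437025_at lies at chr1:60772579-60773360, at the far end of the gene (60746388 to 60773359). The aligned share in the deposited annotation was 55.7% for 1437025_at, against 96.4% for 1417597_at. In 1417597_at the RMA log2 signals were 7.73, 8.17 and 8.73 in Gfi1-KD and 6.80, 6.38 and 6.32 in Gfi1-KI. In 1437025_at they were 7.71, 8.23 and 8.90 in Gfi1-KD and 7.14, 6.75 and 6.63 in Gfi1-KI. Both put the 6 arrays in the same order, from Gfi1-KD replicate 3 at the top to Gfi1-KI replicate 3 at the bottom, and left gaps of 0.93 and 0.57 between the groups.

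The MAS5 signals of Cd28 kept the groups apart as well. They were 703, 819 and 1266 in Gfi1-KD and 416, 264 and 255 in Gfi1-KI for 1417597_at. For 1437025_at they were 415, 581 and 999 in Gfi1-KD and 226, 272 and 215 in Gfi1-KI. Gfi1-KD replicate 3 was the brightest array in each. The log2 difference in MAS5 was 1.57 ± 0.32 and 1.39 ± 0.35 (SE of limma), and in RMA 1.71 and 1.44. Without Gfi1-KD replicate 3 the MAS5 values were 1.32 and 1.05, the lowest with any single array left out. By ratio, 1417597_at ranked 21 and 1437025_at ranked 40 among the 1135 probe sets higher in Gfi1-KD in the authors' deposited table.

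Tespa1 also had a pair of filled probe sets. For 1428959_at, which spans chr10:130322866-130362641, the RMA log2 signals were 8.78, 8.53 and 9.53 in Gfi1-KD and 7.59, 8.25 and 7.40 in Gfi1-KI. For 1439179_a_at, inside it at chr10:130331085-130348551, they were 9.19, 8.26 and 9.33 in Gfi1-KD and 7.76, 8.18 and 7.73 in Gfi1-KI. In both, Gfi1-KD replicate 2 and Gfi1-KI replicate 2 were the nearest arrays across the groups, with gaps of 0.29 and 0.08. The annotation notes that 8 probes of 1439179_a_at also match a transcript predicted by GENSCAN.

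In the MAS5 signals that pair of arrays crossed. Gfi1-KD had 936, 704 and 1735 and Gfi1-KI had 405, 710 and 406 for 1428959_at. For 1439179_a_at the values were 1154, 574 and 1507 in Gfi1-KD and 395, 579 and 475 in Gfi1-KI. Gfi1-KI replicate 2 was just above Gfi1-KD replicate 2 in each, by 0.01 on the log2 scale, so the groups overlapped by the width of that pair. These signals were not centred by array. The median MAS5 signal was 117 on Gfi1-KD replicate 2 and 134 on Gfi1-KI replicate 2, so this overlap is narrow beside the difference in array brightness. The log2 difference was 1.10 ± 0.40 and 1.07 ± 0.39 (SE of limma), and 1.37 and 1.21 without Gfi1-KI replicate 2. Without Gfi1-KD replicate 3 it was 0.73 and 0.77, the lowest with any single array left out.

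**Figure D2:**
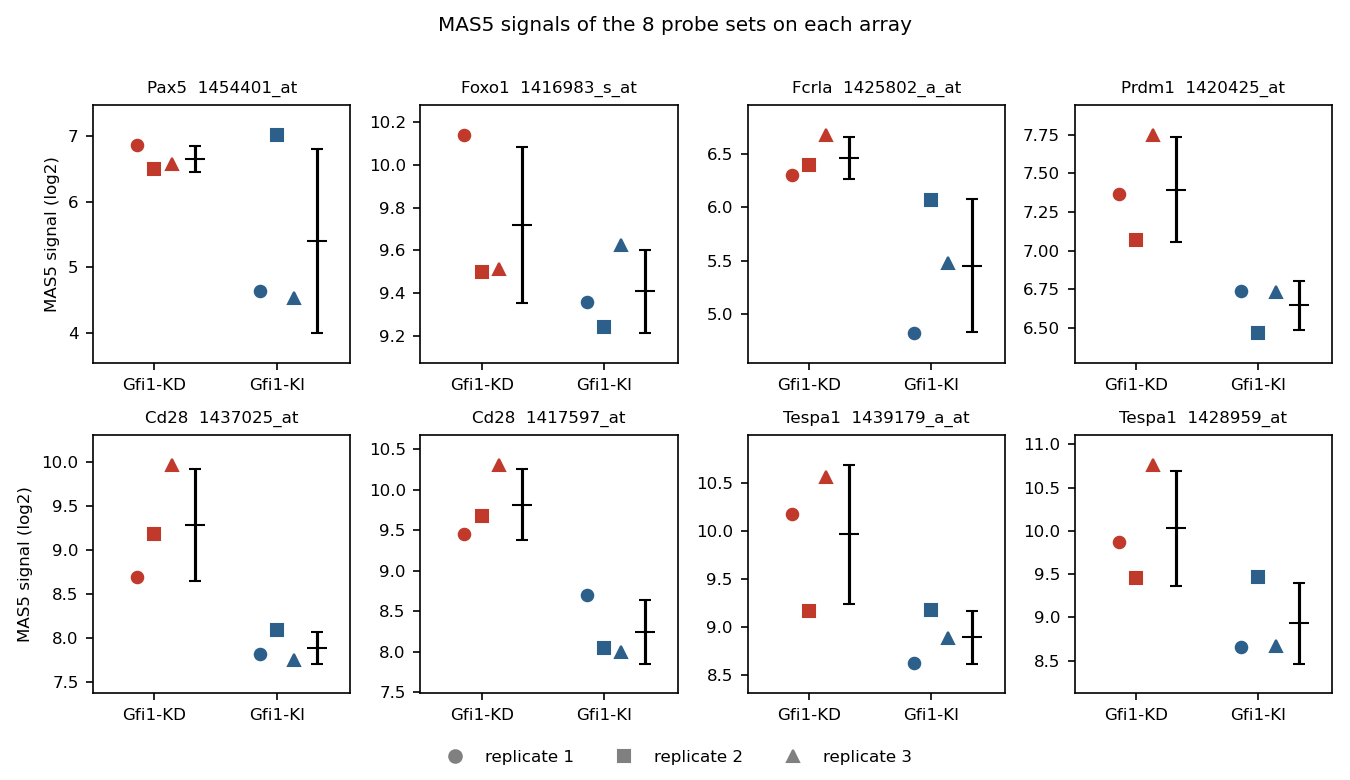
MAS5 signal (log2, vertical axis, its own range in each panel and not from 0) of the same 8 probe sets, with Gfi1-KD arrays in red on the left and Gfi1-KI arrays in blue on the right; symbols mark replicates, and bars show the mean and SD of 3 arrays. The groups stay apart for Fcrla, Prdm1 and both probe sets of Cd28, and overlap for Pax5, Foxo1 and both probe sets of Tespa1. The signals are not centred by array, and the overlap for Tespa1 is by 0.01.

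All 3 Gfi1-KD arrays lay above all 3 Gfi1-KI arrays for 8 of 8 member probe sets in RMA, where 57.0% of the filled probe sets did so by the way they were selected. In MAS5 this held for 4 of 8, against 6.13% of all probe sets other than controls (6.77% of those above the level filter). Without Gfi1-KI replicate 2 it held for 7 of 8 in MAS5, with Foxo1 the exception, against 11.9% of all. It held for 6 without Gfi1-KD replicate 2 (14.6% of all) and for 5 without Gfi1-KI replicate 3 (10.7%). It held for 4 without Gfi1-KD replicate 3 (9.32%), without Gfi1-KI replicate 1 (13.3%) or without Gfi1-KD replicate 1 (4517 of 45037 probe sets). The same arrays were measured in both, so the MAS5 count is not independent of the selection. That count used signals not centred by array, and the count after centring is not given here. In RMA the replicates spread in a like way for several members. There Gfi1-KD replicate 3 was the highest Gfi1-KD array for 5 of 8 probe sets, those of Prdm1, Cd28 and Tespa1. Gfi1-KI replicate 3 was the lowest Gfi1-KI array for 7 of 8, all but that of Prdm1. In MAS5, Gfi1-KD replicate 3 was highest for 6 of 8, but Gfi1-KI replicate 3 was lowest for only 3 of 8. Gfi1-KD replicate 2 was the lowest Gfi1-KD array there for 5 of 8. Of the 6 arrays, Gfi1-KD replicate 3 had the highest median MAS5 signal (148) and Gfi1-KD replicate 2 the lowest (117). The part of array brightness in these orders was not tested. The shares of these orders over all filled probe sets are not given here.

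**Figure D3:**
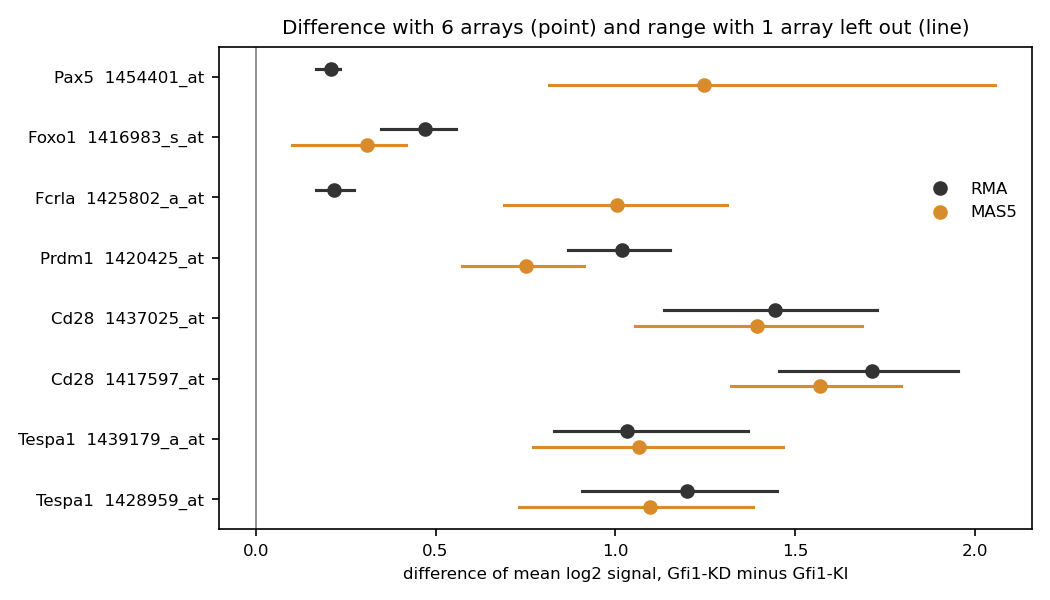
Difference of mean log2 signal, Gfi1-KD minus Gfi1-KI (horizontal axis), for each of the 8 probe sets, in RMA (dark) and MAS5 (orange) signals; points use all 6 arrays and lines run from the lowest to the highest value with 1 array left out. All points and lines lie above 0, and the 2 kinds of signal part most for Pax5 (0.21 and 1.25) and Fcrla (0.22 and 1.01).

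Genes whose pattern over the 6 arrays came nearest were found among the other 1511 named genes of the authors' deposited table, by the root mean square difference of the RMA log2 profiles after each was centred on its mean. For Cd28 the nearest was BC026585, at 0.12 from 1417597_at and 0.19 from 1437025_at, while its own probe sets differed by 0.15. Next came Lgmn, a lysosomal protease (0.18), for 1417597_at. Lgmn had RMA log2 signals of 8.25, 8.48 and 9.16 in Gfi1-KD and 7.60, 6.59 and 6.81 in Gfi1-KI. As in Cd28, Gfi1-KD replicate 3 was highest and Gfi1-KD replicate 1 the lowest of its group.

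For Prdm1 the nearest were Zfyve16 and Prr5 (both 0.13), and for Tespa1 they were Micu3, a subunit of mitochondrial calcium uptake (0.15), and Cib1, a calcium and integrin binding protein (0.20), for 1439179_a_at. For 1428959_at they were Arl4c (0.17), a small GTPase, and Gcnt2 (0.22), while the probe sets of Tespa1 differed from each other by 0.26. Foxo1 came nearest to Dnajb14 (0.06) and Mettl21a (0.07). Pax5 came nearest to Prr18 and A330008L17Rik (both 0.02), and Fcrla to Slc16a9 and Zcchc3 (both 0.02). The size of these values goes with the spread of the probe set: the SD over the 6 arrays was 0.12 for Pax5 and 0.13 for Fcrla, against 0.92 for 1417597_at of Cd28. All these genes were selected by the same contrast, so that they share its direction is part of the choice.

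Among the members themselves, Pax5 and Fcrla had the closest profiles of different genes (0.04), followed by Fcrla and Foxo1 (0.19). Prdm1 lay nearer to 1439179_a_at of Tespa1 (0.26) than to either probe set of Cd28 (0.45 and 0.51).

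Few other lymphoid genes could be followed. Of 31 genes on a B cell list, 3 were named, at a median RMA log2 difference of 0.22. These were the members Pax5, Foxo1 and Fcrla, the first by the probe set that was designed for 5730488B01Rik. The plasma cell list had 1 of 11 named, Prdm1, and the lymphoid progenitor and stem list 1 of 15, Tespa1. The T and NK cell list had 3 of 30 named, all higher in Gfi1-KD in RMA, among them Cd28 and the costimulator Icos. The median over all 1711 named probe sets was 0.15. Defining markers such as Cd79a and Cd3e are named by no filled row and were not analysed here, so the presence of B or T cells in these samples was not established from them.

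Icos, a relative of Cd28 on activated T cells, had RMA log2 signals of 6.36, 6.18 and 6.04 in Gfi1-KD and 5.94, 5.97 and 5.83 in Gfi1-KI. The groups were separate, as the selection by p favours. The highest Gfi1-KD array was replicate 1 and not replicate 3 as in Cd28. The mean MAS5 log2 signal of Icos, 6.45, lay below the level filter.

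On a list of T cell receptor signalling, 4 of 20 genes were named, among them the members Cd28 and Tespa1. The others were the calcium-regulated factors Nfatc1 and Nfatc2. All 4 were higher in Gfi1-KD, as were 860 of all 1512 named genes. Nfatc1 had RMA log2 signals of 10.2, 9.74 and 10.6 in Gfi1-KD and 9.37, 9.21 and 9.38 in Gfi1-KI, a difference of 0.86 (0.91 in MAS5). Nfatc1 had its highest Gfi1-KD value on replicate 3, as Prdm1, Cd28 and Tespa1 did. Nfatc2 differed by 0.18, and its mean MAS5 log2 signal of 6.06 lay below the level filter. On a list of FOXO1 and phosphoinositide 3-kinase signalling, 3 of 15 were named, with Foxo1 higher and Foxo3 and Akt2 lower. Foxo3 had 6.33, 6.20 and 6.22 in Gfi1-KD and 6.47, 6.47 and 6.56 in Gfi1-KI, opposite in direction to Foxo1. The kinase Akt2 had a difference of -0.22 in RMA but 0.09 in MAS5, where the direction turned.

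A wider count used the Gene Ontology annotation in the authors' deposited table and was chosen after values had been seen. Of 38 named genes with a T cell term, 31 were higher (81.6%) and 7 lower in Gfi1-KD. Of 14 with a B cell term, 11 were higher (78.6%) and 3 lower. Some genes carry both terms, such as Adam17, Ahr and Ptpn6, so these counts are not separate results. The T cell terms also cover Ccr2, on the monocyte and macrophage list below, and H2-DMa, on the dendritic and plasmacytoid list. That count is therefore not of lymphocyte genes alone. Among the 1109 genes with any biological process term, 623 were higher (56.2%) and 483 lower. With the members left out the counts were 29 and 7 for T cell terms and 10 and 3 for B cell terms. Among genes with a B cell term, Pou2f2 (Oct-2), an octamer factor of B cells, differed by 0.83 and 1.18 in its probe sets, and Irs2, an adaptor of insulin signalling, by -0.87. Among genes with a T cell term, the chemokine gene Ccl3 differed by 2.05, and Prnp, the prion protein gene, by -2.25 and -0.57 in its probe sets. The others that were lower ranged from -0.43 (Cenpf) to -0.15 (Icosl, the ligand of Icos).

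Markers of other cell types also differed between the groups, some higher in Gfi1-KD as the members were and some lower. Their part in the differences of the members was not tested. On the monocyte and macrophage list 5 of 12 genes were named, by 8 probe sets, all higher, and their summed linear RMA signal was 31790 to 51632 on Gfi1-KD arrays, against 15676 to 24858 on Gfi1-KI arrays. On the dendritic and plasmacytoid list 3 of 12 were named, all higher, at 7441 to 9234 on Gfi1-KD arrays, against 5071 to 5949 on Gfi1-KI arrays. On the late neutrophil list 2 of 12 were named, both lower, at 261 to 2352 on Gfi1-KD arrays, against 10502 to 24484 on Gfi1-KI arrays. The erythroid list had 1 of 10 named, Epb41, at 671 to 777 on Gfi1-KD arrays, against 1014 to 1624 on Gfi1-KI arrays.

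The array that was highest for Prdm1, Cd28 and Tespa1 was Gfi1-KD replicate 3. It was also highest in the monocyte and macrophage sum (51632) and the dendritic and plasmacytoid sum (9234), and lowest in the late neutrophil sum (261). The summed signal of the named T and NK cell probe sets was 523 to 987 on Gfi1-KD arrays, against 253 to 332 on Gfi1-KI arrays, most of it from Cd28. That of the B cell list was 543 to 632 on Gfi1-KD arrays, against 379 to 473 on Gfi1-KI arrays. Most of the B cell sum came from Foxo1, and it includes the probe set listed as Pax5. No marker with a filled row was at 0, since RMA signals are never 0.

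**Figure D4:**
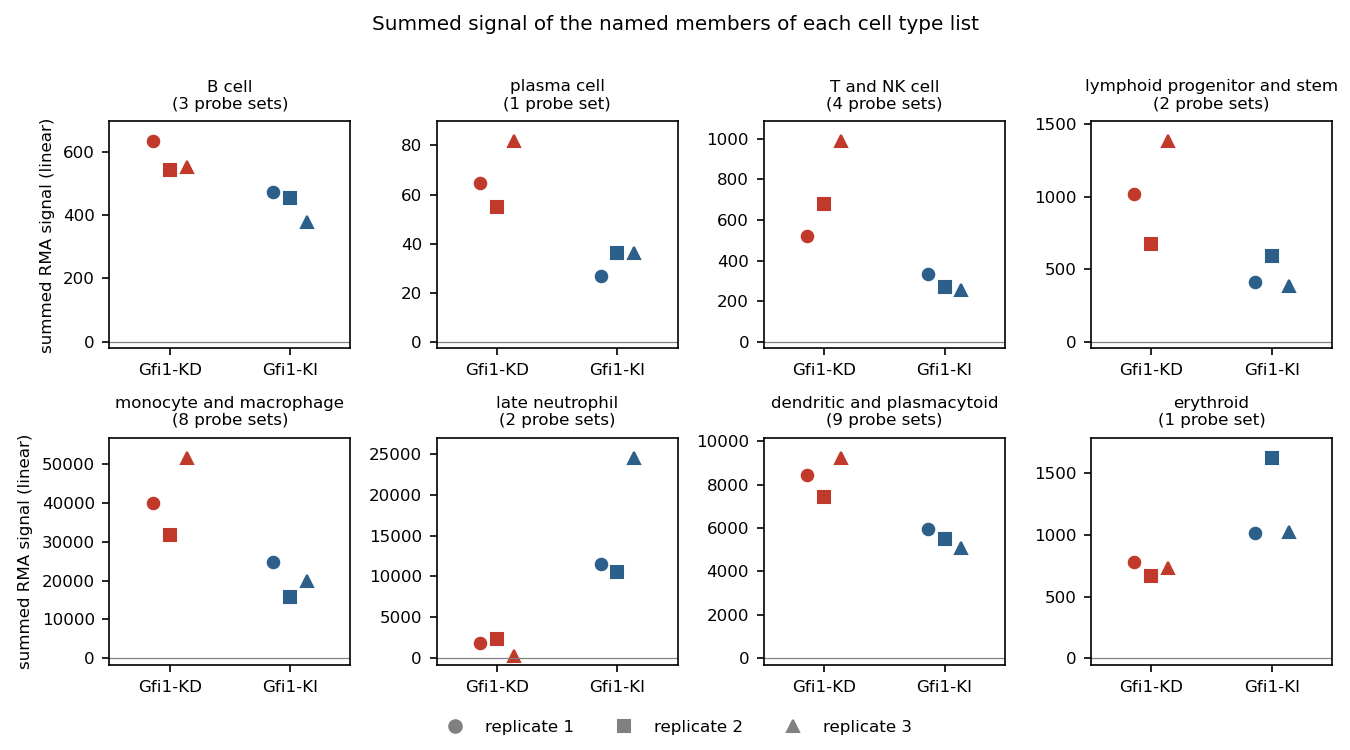
Summed linear RMA signal (vertical axis, from 0) of the probe sets that the authors' deposited table names for each cell type list, on the 3 Gfi1-KD arrays (red, left) and the 3 Gfi1-KI arrays (blue, right), with symbols for replicates. Gfi1-KD replicate 3 (triangle) is highest in the T and NK cell (987), monocyte and macrophage (51632) and dendritic and plasmacytoid (9234) panels. It is also highest in the plasma cell (81.7) and lymphoid progenitor and stem (1382) panels, and lowest in the late neutrophil panel (261). The plasma cell panel holds only Prdm1 and the progenitor panel only Tespa1, so these panels repeat the members. In the B cell panel Gfi1-KD replicate 1 is highest (632), against 551 for Gfi1-KD replicate 3.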

How the data were processed

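Bone marrow RNA of 6 mice, 3 Gfi1-KD and 3 Gfi1-KI, was measured on 1 array each. Per the submitters' processing notes the value table was made with MAS5, and it holds an intensity per probe set on a linear scale, as deposited. A second table gives RMA signals on a log2 scale for these arrays, per the file headers. It also gives, as deposited, a p-value from an ANOVA between kd and wt, a step-up p-value, a ratio (kd over wt) and the same fold as a signed score. The group headed wt was taken to be Gfi1-KI, since no other genotype was measured. Of 45101 rows, 43112 are blank and the others have a p-value under 0.05. The software and its versions are not given in the sources used here.

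Genotype labels set the groups, and replicate numbers follow deposit order. Whether the spread between arrays holds anything beyond the animals is not stated, so p-values measure the spread between these samples. MAS5 signals under 1 were set to 1, log2 was taken, and probe sets with a mean at or above the median (6.95) were tested with limma (version 3.58.1, R 4.3.3; lmFit, eBayes with a trend, two-sided, Benjamini-Hochberg), a procedure tested on simulated data. RMA signals were not refitted, because only selected rows are filled. Symbols, coordinates and probe matches are those of the deposited annotation, and gene bounds and promoters those of RefSeq (GRCm38). The members, the lists and the choice of named genes (the members, the 2 most alike genes per probe set, list members with a filled row) were made with earlier results of these data known. Some genes that this choice would name are not reported here. Genes named from Gene Ontology terms were chosen after their values were seen. Alternatives were other level filters, quantile normalization, median centring, added constants of 16 and 64, eBayes without a trend, array weights, RMA for MAS5, and each array left out. Python 3.11.15 with pandas 2.3.3, numpy 2.4.6 and matplotlib 3.10.9 was used for tables and plots.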

Additional observations from a re-analysis of the deposited data

How the results depend on the processing

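limma called 0 probe sets with all arrays and under each of the 14 alternatives, with a smallest adjusted p between 0.144 and 0.9997. No paired analysis was possible because the replicate numbers only follow the order of deposit. The log2 differences of the 8 member probe sets were above 0 in all 152 planned recalculations, and 146 of these moved by less than 1 SD between replicates. Part of both counts was fixed in advance. Leaving out 1 array of a group cannot move its mean by 1 SD. In RMA no member's groups overlapped, so those differences had to stay above 0 with 1 array left out. The other 6 were Pax5 (0.21), Fcrla (0.22) and Prdm1 (1.02) when RMA replaced MAS5, Fcrla with 64 added before log2 (0.48), and Pax5 (0.09) and Fcrla (0.10) when the RMA arrays were centred on their medians. The cause was not tested. The count of member probe sets whose groups do not overlap in MAS5 was 4 with all arrays and 4 to 7 with 1 array left out, an alternative chosen after seeing the data. The MAS5 difference of Foxo1 without Gfi1-KD replicate 1 (0.10), that of Pax5 without Gfi1-KI replicate 2 (2.06) or Gfi1-KI replicate 3 (0.81), that of Pax5 with 64 added before log2 (0.52), and that of Foxo1 when RMA replaced MAS5 (0.47) also moved by over 1.5 times. Pax5 and Fcrla lay below the level filter, so their MAS5 differences are of dim signals.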
